A study of Mus musculus with 6 samples.

Results

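The synaptonemal complex is the protein ladder that holds paired homologous chromosomes together in meiotic prophase. In mammals each chromosome first forms an axis from cohesins, SYCP2, SYCP3 and the HORMA domain proteins HORMAD1 and HORMAD2. The transverse filament protein SYCP1 then joins the axes, and the central element proteins SYCE1, SYCE2, SYCE3, TEX12 and SIX6OS1 fix its ends in the middle. In the fetal ovary these genes serve oocytes, which pass through prophase before birth. The 10 genes described here were chosen by symbol as rows of the deposited count table, and all 10 were found among its 25239 rows. They are Sycp1, Sycp2, Sycp3, Syce1, Syce2, Syce3, Tex12, Hormad1, Hormad2 and 4930447C04Rik, which the RefSeq gene table gives with the synonym Six6os1.

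Ovarian RNA of E18.5 mice of the strain C57BL/6 was sequenced in 6 libraries, of which 3 carry the genotype WT and 3 the genotype Hnrnpl-null. Hnrnpl encodes an RNA-binding regulator of splicing. CKO, in the titles of the Hnrnpl-null libraries, is explained nowhere in the labels. The word stra8, also unexplained, stands in the name of the deposited table. No Cre driver, deleted exon or pooling of animals is named. They give the tissue as ovary and the cell type as oocyte, with no sort that would remove somatic cells. Whether each library is a different animal is not stated, and the p-values here reflect only differences among these libraries, which may be technical.

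Total counts ran from 8949781 to 22401419 per library, and the pre-ribosomal RNA row Rn45s took 18.6% to 86.1% of them. The share was highest in WT replicate 1 and Hnrnpl-null replicate 3, which kept 3818414 and 1757572 counts for all other genes, against 5727264 to 10980179 in the other libraries. At least 93.4% of the low counts (1 to 20) of each library were even, as when a read pair is worth 2 counts. In CPM (counts scaled to library size), Hnrnpl itself was at 172, 169 and 145 in WT and at 166, 173 and 213 in Hnrnpl-null, with replicates in the order 1 to 3 here and below. The edgeR adjusted p for Hnrnpl was 0.50, so its summed count does not check the labels. The 10 markers of pregranulosa and other gonadal somatic cells summed to at least 829 CPM in each library, so the RNA is not that of oocytes alone.

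The members lie on 9 chromosomes of mm10 and have 4 to 44 exons. Sycp1 runs over chromosome 3, 102818499 to 102936100, on the minus strand, and Hormad1 over 95559677 to 95587863 on the plus strand of the same chromosome. Sycp2 runs over chromosome 2, 178345296 to 178407658 (minus strand), and Sycp3 over chromosome 10, 88459587 to 88473236 (plus strand). Syce1 lies at chromosome 7, 140777229 to 140787854 (minus strand), and 4930447C04Rik at chromosome 12, 72881109 to 72917765 (minus strand). Of the 10 members, only Sycp3 has exons that overlap those of another gene in the table. It shares 80 of its 1122 exonic bases (7.13%) with Chpt1 on the opposite strand. Chpt1 was at 11.1 ± 3.40 CPM in WT (SD, n = 3) and was not called (log2 fold change 0.40, edgeR adjusted p = 0.41). The pseudogene Sycp1-ps1 had no counts in any library.

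The 250 bases before the annotated start are shown for 5 members because 6 of the 10 share a motif there. The windows are those of RefSeq on GRCm38.p6, read 5′ to 3′ on the gene's strand, and all 10 members matched the table, with 13 windows in all. The Sycp3 window is chr10:88459337-88459586 on the plus strand and the Hormad1 window is chr3:95559427-95559676 on the plus strand. The windows of Sycp1, Sycp2 and 4930447C04Rik are chr3:102936101-102936350, chr2:178407659-178407908 and chr12:72917766-72918015, all on the minus strand. Capitals mark exact matches on either strand to CACGTG (the palindromic E-box), GCGGGA (an E2F-type motif) or CCTCAG (a core of the motif of the meiotic entry factors STRA8 and MEIOSIN, whose other strand reads CTGAGG).
Sycp3: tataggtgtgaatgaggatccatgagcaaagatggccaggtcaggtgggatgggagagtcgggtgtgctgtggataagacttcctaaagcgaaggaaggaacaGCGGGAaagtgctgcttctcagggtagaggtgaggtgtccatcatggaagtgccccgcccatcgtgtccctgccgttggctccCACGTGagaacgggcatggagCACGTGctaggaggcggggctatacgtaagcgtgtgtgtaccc
Hormad1: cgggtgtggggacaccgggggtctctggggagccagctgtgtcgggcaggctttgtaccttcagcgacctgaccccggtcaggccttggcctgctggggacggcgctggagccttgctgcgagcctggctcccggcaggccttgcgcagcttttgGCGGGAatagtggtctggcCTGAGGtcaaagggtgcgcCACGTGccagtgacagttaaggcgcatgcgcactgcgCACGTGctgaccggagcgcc
Sycp1: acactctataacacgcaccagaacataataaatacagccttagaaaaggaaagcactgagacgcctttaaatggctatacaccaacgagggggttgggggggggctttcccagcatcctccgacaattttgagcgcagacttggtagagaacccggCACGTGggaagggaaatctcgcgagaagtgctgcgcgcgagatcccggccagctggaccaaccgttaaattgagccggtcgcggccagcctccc
Sycp2: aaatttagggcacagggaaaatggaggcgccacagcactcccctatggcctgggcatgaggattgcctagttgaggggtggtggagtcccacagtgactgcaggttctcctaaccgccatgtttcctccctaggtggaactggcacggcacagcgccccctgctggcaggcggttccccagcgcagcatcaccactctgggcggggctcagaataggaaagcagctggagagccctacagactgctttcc
4930447C04Rik: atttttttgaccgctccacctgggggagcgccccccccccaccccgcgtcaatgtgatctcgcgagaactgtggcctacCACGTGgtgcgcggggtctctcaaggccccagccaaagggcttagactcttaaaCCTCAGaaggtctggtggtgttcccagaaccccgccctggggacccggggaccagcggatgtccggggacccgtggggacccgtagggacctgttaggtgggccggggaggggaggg

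CACGTG was found in at least 1 window of 6 members, namely Sycp1, Sycp3, Hormad1, Syce2, Tex12 and 4930447C04Rik. Over all RefSeq windows of the same length it was found in 6.02% (1978 of 32851), and 7.61% of 17492 protein-coding genes had it in at least 1 window. Sycp3 had it at 64 and 43 bases before the start, and Hormad1 at 57 and 20 bases. The match lay 94 bases before the start in Sycp1 and 171 bases before it in 4930447C04Rik. GCGGGA was found in 4 members (24.2% of protein-coding genes) and CCTCAG in 5 (24.9%). In the windows printed, no matches overlap each other. Sycp2, Syce1 and Syce3 had none of the 3 motifs, which says only that these letters are not in the windows. The member windows ran from 53.2% to 68.0% GC, against a median of 55.6% over the windows of protein-coding genes. Of the 6 members with CACGTG, Sycp1, Sycp3 and Hormad1 were called lower in the comparison below. Syce2 and 4930447C04Rik were tested and not called, and Tex12 was not tested. Of the members without CACGTG, Sycp2 and Syce1 were called lower, and Syce3 and Hormad2 were not called. A match is a description of the letters and does not show that a factor binds.

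Lower levels were found in the Hnrnpl-null libraries for the axis and transverse filament transcripts Sycp1, Sycp2, Sycp3 and Hormad1 and for the central element transcript Syce1. Counts were tested with edgeR's quasi-likelihood test over all 14849 genes that passed a filter on low counts, and the threshold for a call was an adjusted p of 0.05 (Benjamini-Hochberg). Of the 9 members tested, 5 were called lower and 0 higher, where 1.79% of all genes tested were called lower, 2.67% higher and 4.46% in either direction. The 4 members tested but not called were Syce2, Syce3, 4930447C04Rik and Hormad2, and Tex12 did not pass the filter. The median log2 fold change of the 9 was -0.94, against -0.01 over all genes tested. The groups did not overlap, with every Hnrnpl-null library lower, in 5 of the 9, and this held in 13.2% of all genes tested. Such levels come from whole ovaries, so fewer oocytes and less RNA per oocyte cannot be told apart.

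**Figure D1:**
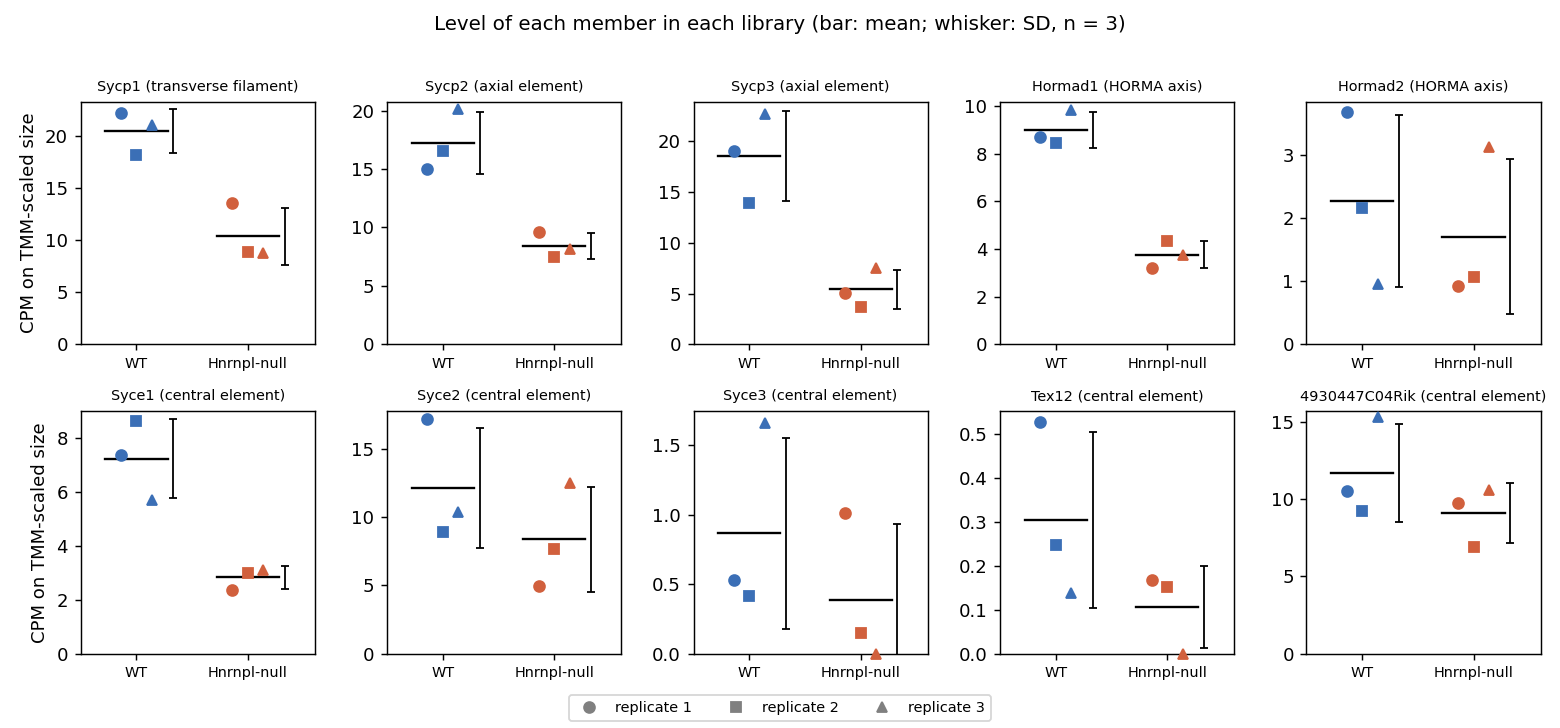
Level of each of the 10 members in CPM (vertical axis, linear, from 0) in the 3 WT and 3 Hnrnpl-null libraries, with 1 symbol per replicate, the mean as a bar and the SD as a whisker. In Sycp1, Sycp2, Sycp3, Hormad1 and Syce1 every WT library lies above every Hnrnpl-null library, and in the other 5 members the groups overlap.

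Sycp3 had the lowest ratio to WT of the 9 members tested. It encodes a protein of the lateral element that binds DNA and compacts the axis. The WT libraries held 19.0, 13.8 and 22.6 CPM of it and the Hnrnpl-null libraries 5.06, 3.66 and 7.50 CPM. Every Hnrnpl-null library lay below the lowest WT library, and the level in Hnrnpl-null replicate 3 rests on 24 counts (12 read pairs, exact Poisson 95% interval 3.88 to 13.1 CPM, for counting error only). Sycp3 fell to 26.8% of WT (95% interval of the ratio 0.178 to 0.403), or by -1.90 ± 0.27 (SE) on the log2 scale, with an edgeR adjusted p of 0.0012. Sycp3 was called without any 1 of the 6 libraries, with log2 fold changes of -2.07 to -1.65.

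Sycp2, the partner of SYCP3 in the lateral element, was at 15.0, 16.5 and 20.1 CPM in WT and at 9.61, 7.46 and 8.12 CPM in Hnrnpl-null. The highest Hnrnpl-null library lay below the lowest WT library. For Sycp2, Hnrnpl-null replicate 3 rests on 26 counts (13 read pairs, exact Poisson 95% interval 4.33 to 13.9 CPM). Sycp2 fell to 48.9% of WT (log2 fold change -1.03 ± 0.20, edgeR adjusted p = 0.010). Leaving out WT replicate 3 or Hnrnpl-null replicate 2 ended its call (edgeR adjusted p of 0.067 and 0.076). The ratio of Sycp3 to Sycp2, taken per kilobase, was 6.40, 4.25 and 5.69 in WT and 2.67, 2.49 and 4.69 in Hnrnpl-null. Hnrnpl-null replicate 3 lay within the WT range, so the groups overlap. The ratio in Hnrnpl-null was 58.6% of that in WT, with p = 0.20 (two-sided exact permutation test, n = 3 each, 0.80 adjusted over 4 ratios), in a design whose smallest possible p is 0.10.

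Sycp1 encodes the transverse filament that zips the axes together. It was at 22.3, 18.2 and 21.1 CPM in WT and at 13.6, 8.91 and 8.75 CPM in Hnrnpl-null. The groups did not overlap, and Hnrnpl-null replicate 1 was the highest of its group. For Sycp1, Hnrnpl-null replicate 3 rests on 28 counts (14 read pairs, exact Poisson 95% interval 4.78 to 14.7 CPM). Sycp1 fell to 52.2% of WT (log2 fold change -0.94 ± 0.20, edgeR adjusted p = 0.020). Leaving out Hnrnpl-null replicate 2, or any of the WT libraries, ended the call (edgeR adjusted p of 0.052 to 0.12).

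Hormad1 and Hormad2 encode axis proteins that mark chromosomes that have not paired. Hormad1 was at 8.69, 8.46 and 9.85 CPM in WT and at 3.20, 4.34 and 3.75 CPM in Hnrnpl-null. The WT libraries were close to each other and each was above every Hnrnpl-null library. For Hormad1, Hnrnpl-null replicate 3 rests on 12 counts (6 read pairs, exact Poisson 95% interval 1.38 to 8.16 CPM). Hormad1 fell to 41.9% of WT (log2 fold change -1.25 ± 0.26, edgeR adjusted p = 0.016), and leaving out Hnrnpl-null replicate 1 or WT replicate 2 or 3 ended the call (edgeR adjusted p of 0.066 to 0.080). Hormad2 was at 3.69, 2.16 and 0.965 CPM in WT and at 0.927, 1.07 and 3.12 CPM in Hnrnpl-null, so the groups overlap. Hormad2 was not called (edgeR adjusted p = 0.68), at 0.648 of WT and with 95% limits of 0.238 and 1.76. Those limits hold both the ratio of Hormad1 and a ratio of 1. The ratio of Hormad2 to Hormad1 per kilobase was 0.613, 0.367 and 0.145 in WT and 0.421, 0.356 and 1.2 in Hnrnpl-null, with p = 0.50 (two-sided exact permutation test, n = 3 each, 0.93 adjusted over 4 ratios). Other proteins with a HORMA domain act outside meiosis. They are Mad2l1 of the spindle checkpoint, Mad2l2 of DNA repair and Atg13 and Atg101 of autophagy, and 0 of the 4 were called by edgeR, with 0 at an unadjusted p below 0.05 and log2 fold changes of -0.28 to 0.20.

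Of the 5 central element genes, 1 was called. Syce1 was at 7.38, 8.62 and 5.72 CPM in WT and at 2.36, 3.01 and 3.12 CPM in Hnrnpl-null, with no overlap. The level in Hnrnpl-null replicate 3 rests on 10 counts (5 read pairs, exact Poisson 95% interval 1.01 to 7.29 CPM). That interval reaches into the WT range. Syce1 fell to 38.2% of WT (log2 fold change -1.39 ± 0.31, edgeR adjusted p = 0.022). Leaving out replicate 1 or 2 of either group ended its call (edgeR adjusted p of 0.065 to 0.15). SYCE2 and TEX12 form the fibres of the central element. Syce2 was at 17.1, 8.87 and 10.3 CPM in WT and at 4.93, 7.69 and 12.5 CPM in Hnrnpl-null, with the highest level of each group in the library richest in Rn45s. Its ratio to WT was 0.647 (95% interval 0.395 to 1.06, edgeR adjusted p = 0.34). SIX6OS1, an SYCE1 partner, is encoded by 4930447C04Rik, which was at 10.5, 9.24 and 15.3 CPM in WT and at 9.74, 6.93 and 10.6 CPM in Hnrnpl-null. The groups overlap, and its ratio to WT was 0.757 (95% interval 0.519 to 1.11, edgeR adjusted p = 0.44).

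Syce3 and Tex12 were too low to compare. Syce3 had 4, 10 and 24 counts in WT and 24, 4 and 0 in Hnrnpl-null, and its ratio of 0.565 has a 95% interval of 0.142 to 2.24. Tex12 had 4, 6 and 2 counts in WT and 4, 4 and 0 in Hnrnpl-null. In Hnrnpl-null replicate 3 a count of 0 allows up to 1.87 CPM by the floor of 3 read pairs (6 counts) and up to 2.31 CPM by the exact Poisson 95% interval, and both are above the level of Syce3 or Tex12 in any library. Their exonic lengths in the table are 553 and 617 bases, the shortest of the 10. For the same reason the ratios of Syce2 to Tex12 and of Syce1 to Syce3 could not be placed, with p of 0.70 and 1 (two-sided exact permutation tests, n = 3 each).

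**Figure D2:**
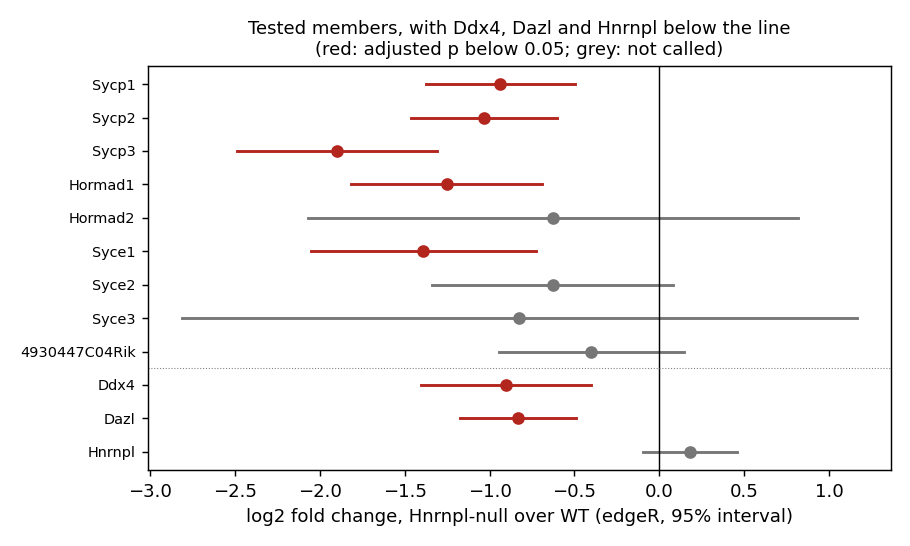
Log2 fold change of Hnrnpl-null over WT (horizontal axis) with its 95% interval from the edgeR fit for the 9 members tested and, below the dotted line, Ddx4, Dazl and Hnrnpl. Red marks an adjusted p below 0.05, and the intervals of Sycp1, Sycp2, Sycp3, Hormad1 and Syce1 lie below 0, from a log2 fold change of -1.90 in Sycp3 to -0.94 in Sycp1.

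Levels of different genes were compared per kilobase of exon. In WT the order by mean was Sycp3 (16.5 ± 3.92 CPM per kilobase, SD, n = 3), Syce2 (8.82 ± 3.21), 4930447C04Rik (6.12 ± 1.67), Sycp1 (5.97 ± 0.608), Syce1 (4.95 ± 0.996), Hormad1 (4.69 ± 0.389), Sycp2 (3.03 ± 0.462), Hormad2 (1.69 ± 1.02), Syce3 (1.56 ± 1.24) and Tex12 (0.494 ± 0.325). Among neighbours in this order, only Hormad1 and Sycp2 had ranges that did not overlap over the 3 WT libraries. Sycp3 was above Syce2 in 3 of 3 WT libraries, although their ranges overlap. In Hnrnpl-null the means of Sycp3 and Syce2 were 4.82 ± 1.73 and 6.10 ± 2.79 CPM per kilobase, so Syce2 came before Sycp3 in order of the means, within the spread. The order of the lowest 4, from Sycp2 to Tex12, was the same in both groups.

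The germ cell markers Ddx4 and Dazl, an RNA helicase and an RNA-binding protein of germ cells, moved with the members. Ddx4 was at 20.6, 21.7 and 25.6 CPM in WT and at 15.5, 12.3 and 6.25 CPM in Hnrnpl-null, and fell to 53.4% of WT (edgeR adjusted p = 0.044). Dazl was at 54.5, 54.9 and 64.1 CPM in WT and at 28.9, 28.3 and 43.1 CPM in Hnrnpl-null, and fell to 56.2% of WT (edgeR adjusted p = 0.0096). The groups overlap in neither gene. Leaving out Hnrnpl-null replicate 2 or any of the WT libraries ended the Ddx4 call (edgeR adjusted p of 0.066 to 0.16), and leaving out Hnrnpl-null replicate 1 or 2 or WT replicate 3 ended that of Dazl (edgeR adjusted p of 0.054 to 0.073). Of 12 tested germ cell markers 9 were called lower and 0 higher, where 1.79% of all genes tested were called lower and 2.67% higher. The median log2 fold change of the 12 was -1.10. The leading markers Tdrd1 and Piwil2 of the piRNA pathway fell to 22.6% and 37.4% of WT (edgeR adjusted p of 3.8e-06 and 7.9e-06). The summed level of the 10 members was 86.6 to 108 CPM in WT and 43.4 to 57.5 CPM in Hnrnpl-null. Set against the summed level of the 14 germ cell markers it was 18.6%, 14.4% and 17.8% in WT and 17.1%, 15.8% and 20.9% in Hnrnpl-null, so on this scale the groups overlap. The result depends on the stem cell factor receptor gene Kit, which was not called (91.3% of WT, edgeR adjusted p = 0.55) and made up 16.2% to 16.6% of the marker sum in WT and 29.5% to 33.9% in Hnrnpl-null. Without Kit, an alternative chosen after seeing the data, the members came to 22.2%, 17.3% and 21.3% of the sum in WT and 24.2%, 23% and 31.7% in Hnrnpl-null, where each library lay above WT.

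Of the 9 germ cell markers called lower, Ddx4 and Dazl fell least. In Hnrnpl-null replicate 3 Ddx4 was the lowest of its group and Dazl the highest. Each member was then divided by the geometric mean of Ddx4 and Dazl in the same library. For Sycp1 the result was 0.666, 0.527 and 0.521 in WT and 0.643, 0.479 and 0.535 in Hnrnpl-null. For Sycp2 it was 0.450, 0.478 and 0.497 in WT and 0.455, 0.401 and 0.497 in Hnrnpl-null. In both genes the groups lay over each other. For Sycp3 it was 0.567, 0.401 and 0.558 in WT and 0.240, 0.197 and 0.460 in Hnrnpl-null, where replicates 1 and 2 lay below WT and replicate 3 lay within it. The mean log2 difference of Sycp3 was -0.85, with p = 0.20 (two-sided exact permutation test, n = 3 each, 0.60 adjusted over 9 members). For 4930447C04Rik the ratio was 0.316, 0.268 and 0.378 in WT and 0.461, 0.373 and 0.647 in Hnrnpl-null, a mean log2 difference of 0.60 in the other direction (p = 0.20 by the same exact test, 0.60 adjusted over 9 members). Hormad1 was the 1 member of 9 whose groups did not overlap, at 0.244 to 0.261 in WT and 0.152 to 0.235 in Hnrnpl-null, with the smallest p that 3 against 3 can give (0.10 by the exact permutation test, 0.60 adjusted over 9 members). A ratio within a library shows unequal change of the genes in it, and with 0 of 9 reaching an unadjusted p below 0.05 in a design that cannot reach it, no member is shown to have changed apart from Ddx4 and Dazl.

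**Figure D3:**
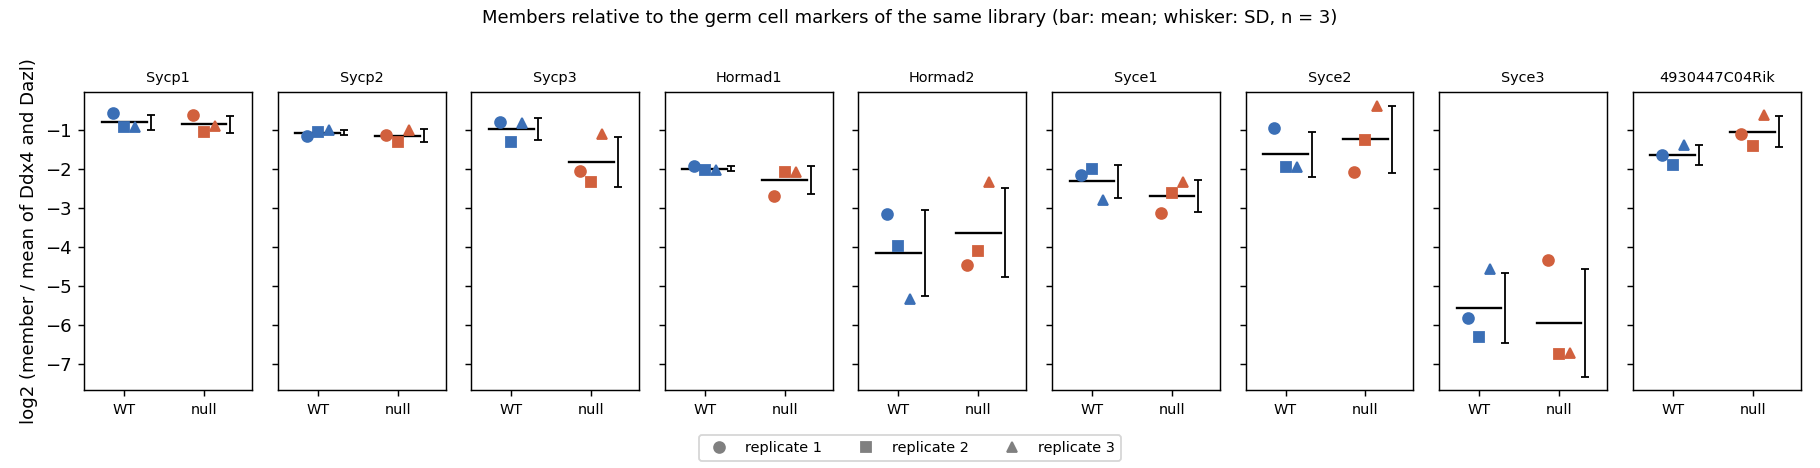
Log2 of each tested member's level over the geometric mean of Ddx4 and Dazl in the same library (vertical axis), with 1 symbol per replicate, the mean as a bar and the SD as a whisker. Sycp1 and Sycp2 lie at the same height in WT and Hnrnpl-null, 2 of the 3 Hnrnpl-null libraries of Sycp3 lie below its WT libraries, and the Hormad1 groups are close but do not overlap.

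Other genes of the axis and of synapsis were read from a list of 45 chosen by role, of which 44 were in the table and 40 passed the filter. Of the 40, 11 were called lower and 1 higher, where 1.79% of all genes tested were called lower and 2.67% higher. The median log2 fold change of the 40 was -0.73. Lower calls numbered 6 without WT replicate 2, 7 without replicate 1 of either group or WT replicate 3, 8 without Hnrnpl-null replicate 2 and 10 without Hnrnpl-null replicate 3. Of the 4 meiotic cohesin subunits in the list, Rec8, Smc1b and Stag3 were among them. Rad21l was not called (log2 fold change -1.25, edgeR adjusted p = 0.12). Rec8 was at 10.4, 9.20 and 10.1 CPM in WT and at 1.35, 2.82 and 1.87 CPM in Hnrnpl-null, and fell to 20.9% of WT (log2 fold change -2.26 ± 0.32, edgeR adjusted p = 0.0011). Smc1b fell to 35.2% and Stag3 to 50.1% of WT (edgeR adjusted p of 1.8e-04 and 0.0069). Cohesin subunits that also act outside meiosis were not called lower. Smc3, shared by both kinds of complex, had a mean of 27.4 ± 3.55 CPM over the WT libraries and of 27.6 ± 1.65 CPM over the Hnrnpl-null libraries. Smc1a, not called, had means of 31.8 ± 3.46 and 39.4 ± 2.56 CPM, and Rad21 rose from 48.8 ± 1.98 to 68.3 ± 3.91 CPM (edgeR adjusted p = 0.025), and its call held in 1 of the 6 fits that left out a library, the one without Hnrnpl-null replicate 3 (in the others, adjusted p of 0.064 to 0.13 by edgeR).

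Sycp2l, an oocyte paralogue of Sycp2, had 22, 24 and 14 counts in WT and 4, 0 and 0 in Hnrnpl-null. It was called lower (edgeR adjusted p = 0.041), but in no fit that left out 1 library (edgeR adjusted p of 0.057 to 0.18), and its size is imprecise at these counts. Ankrd31 and Mei1, both tied to meiotic double-strand breaks, fell to 43.7% and 35.2% of WT (edgeR adjusted p of 0.017 and 0.047). Fkbp6, a co-chaperone first tied to synapsis, and Gm4969, which the RefSeq table lists under Meiosin as a synonym and whose exons overlap those of Six5, fell to 43.1% and 39.3% of WT (edgeR adjusted p of 3.8e-04 and 6.8e-05). Terb1 of the telomere attachment complex, Mlh3 of crossovers and Tex15 of recombination fell to 36.1%, 61.0% and 40.4% of WT (edgeR adjusted p of 0.047, 0.027 and 3.8e-04). The calls of Ankrd31, Mei1, Terb1 and Mlh3 were each lost in at least 3 of the 6 fits that left out a library, and those of Sycp2l and Terb1 also without both libraries richest in Rn45s. The most abundant partners not called were Skp1a, Sun1, Smc1a and Smc3, at 109%, 92.4% and 123% of WT for the first 3 and with 95% limits of the ratio of 0.806 and 1.24 for Smc3. Trip13, named after its values were seen, encodes the ATPase that takes HORMAD1 off paired axes. It was at 9.22, 6.47 and 7.58 CPM in WT and at 11, 12.1 and 17.5 CPM in Hnrnpl-null. The groups did not overlap, with every Hnrnpl-null library higher, as held in 12.4% of all genes tested. Trip13 was not called (edgeR adjusted p = 0.092), while limma-voom called it higher (adjusted p = 0.039).

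**Figure D4:**
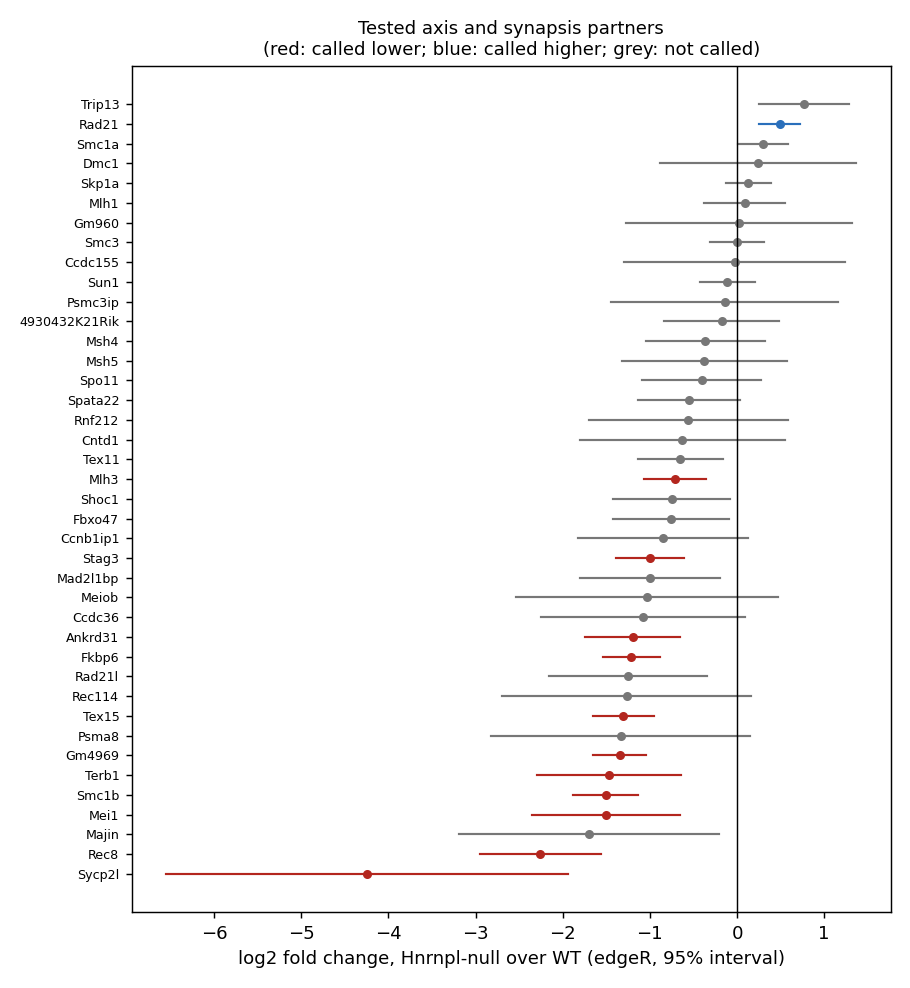
Log2 fold change of Hnrnpl-null over WT (horizontal axis) with its 95% interval from the edgeR fit for the 40 tested axis and synapsis partners, sorted by value. The 11 genes in red, from Sycp2l and Rec8 to Mlh3, were called lower, and Rad21, in blue, was called higher.

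The 5 genes outside the members whose pattern over the 6 libraries was nearest to the mean of the 9 tested members were Hes1, Cpeb1, Grpel2, Fam83g and Taf7l. Nearness was the mean absolute difference of centred log2 CPM among 9917 genes with a mean of at least 5 CPM and a symbol that is no gene model or pseudogene. It was 0.043 for Hes1, a Notch target, 0.068 for Cpeb1, an RNA-binding protein that controls translation in oocytes, and 0.10 for Taf7l, a germ cell paralogue of a TFIID subunit. Among the members themselves the difference from their own mean was 0.145 for Sycp1, 0.169 for Sycp2 and 0.395 for Sycp3, and it was largest for Syce3 (0.923). The 5 outside genes were picked as the nearest of 9917, so their differences are small by selection and cannot be set against those of the members. The mean itself contains each member, and Syce3 and Hormad2 rest on few counts.

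Markers of other cells moved between the groups to different degrees. Of 11 leukocyte and myeloid markers 8 were called higher, against 2.67% of all genes tested. The 11 had a summed level of 64.5 to 73.4 CPM in WT and 657 to 809 CPM in Hnrnpl-null. Most of that sum was the neutrophil granule gene Mpo, at 0.263 to 0.551 CPM in WT and 399 to 523 CPM in Hnrnpl-null, and without it the other 10 summed to 64.0 to 73.1 and 258 to 287 CPM. The 3 markers not called were Csf1r, C1qa and Lyz2, named after their values were seen. Of 10 markers of pregranulosa and other gonadal somatic cells, Kitl was called higher and 9 were not called, at a summed 829 to 895 CPM in WT and 857 to 961 CPM in Hnrnpl-null. The testis markers Dmrt1 and Insl3, named after their values were seen, were at 0 to 6 counts per library and were not tested. The 3 testis markers tested were Sox9, Amh and Cyp17a1, at 18 to 214, 4 to 40 and 4 to 78 counts per library. Of these 3, 0 were called by edgeR (0 at an unadjusted p below 0.05). Of 4 endothelial markers 0 were called by edgeR, with 2 at an unadjusted p below 0.05. These were Cdh5, with a log2 fold change of -0.64, which DESeq2 and limma-voom called lower (adjusted p of 0.028 and 0.029), and Kdr, with 0.35, which they called higher (adjusted p of 0.025 and 0.033). The part of these cells in the levels of the members was not tested. Of the 5 member calls, all were also made without WT replicate 1 and Hnrnpl-null replicate 3 together, the libraries richest in Rn45s. Leaving out 1 library gave 3 member calls without WT replicate 1 or Hnrnpl-null replicate 1, 2 without WT replicate 2, WT replicate 3 or Hnrnpl-null replicate 2, and 5 without Hnrnpl-null replicate 3.

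**Figure D5:**
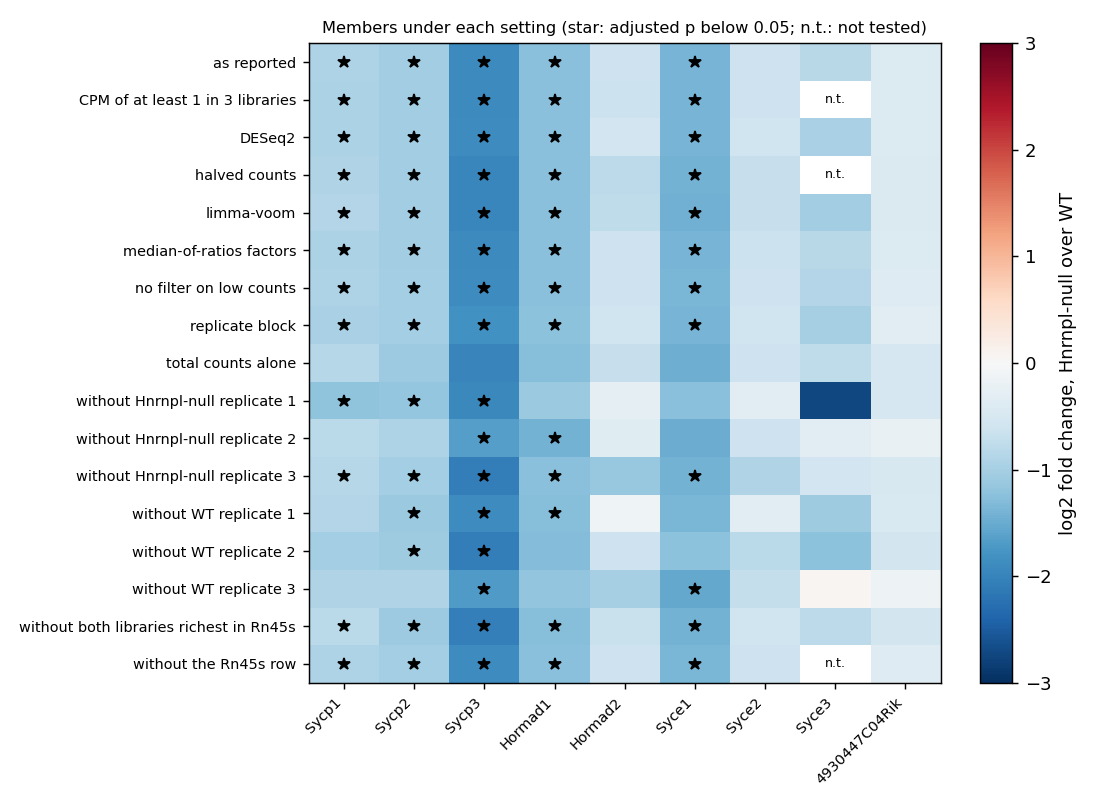
Log2 fold change of each tested member (colour) under each setting of the test (vertical), with a star where the adjusted p was below 0.05. Sycp3 carries a star under each setting except that for scaling by total counts alone, where no member does.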

How the data were processed

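The authors deposited raw counts per gene for the 6 libraries in 1 table, whose headers also hold exon positions and exonic lengths. The submitters' processing notes name featureCounts 2.0.6, HISAT2 2.2.1, STAR 2.7.11a and mm10 without their roles. Annotation, strand setting and handling of multi-mapping reads: not given in the sources used here.

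Genotype was the single term of a two-sided quasi-likelihood test of the counts (edgeR 4.0.16, R 4.3.3, with TMM, filterByExpr, glmQLFit and glmQLFTest) that used all 6 libraries, adjusted by Benjamini-Hochberg over all genes tested. CPM use the TMM-scaled library size, which includes Rn45s in the total. Standard errors and intervals were derived from the F statistic. Ratios used a prior count of 0.5 and exact permutation tests (SciPy 1.17.1), and single-library intervals take 2 counts as 1 read pair. Alternatives were DESeq2 1.42.0, limma 3.58.1 voom, other scalings and filters, halved counts, removal of Rn45s, left-out libraries and a replicate block. Ratios without both Rn45s-rich libraries, and sums without Kit or Mpo, were added after seeing the data.

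The members and lists were chosen with earlier results of these data known, so no p of the fit across genes was adjusted over a list alone, and the exact p of the ratios were adjusted over the ratios computed. Named genes were all members, Hnrnpl, Rn45s, Ddx4, Dazl, the called partners, the 4 most abundant partners not called, the HORMA domain genes, up to 2 genes of each marker list and the 5 nearest genes. Of the lists, 1 partner and 1 surface epithelium marker were not matched. The oocyte transcription factor, erythroid and surface epithelium lists had 5 of 6 lower, 0 of 4 called by edgeR (2 at an unadjusted p below 0.05) and 2 of 3 higher. Over all genes tested 1.79% were called lower and 2.67% higher. Those 2 erythroid markers, Alas2 and Slc4a1, were called higher by DESeq2 (adjusted p of 0.0054 and 0.038) and limma-voom (0.0085 and 0.013). The leading oocyte factors Nobox and Sohlh1 were at 17.6 to 22.4 and 22.7 to 25.2 CPM in WT and at 1.85 to 2.50 and 3.85 to 5.94 CPM in Hnrnpl-null.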

Additional observations from a re-analysis of the deposited data

How the results depend on the processing

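The 5 member calls were made under each alternative that kept all 6 libraries except total counts alone, under which 0 members were called. Under that scaling 0 partners were called lower, 0 higher and 0 germ cell markers lower, with 4 genes called in all (1 lower, 3 higher); the Sycp3 log2 fold change was -1.99. Called genes numbered 1071 with DESeq2 (426 lower, 645 higher), 1273 with limma-voom (498 and 775) and 1104 without the filter (471 and 633). Partners called higher numbered 2 with limma-voom, 2 without the filter and 0 with the replicate block. The block on the titles' replicate numbers called 444 genes (179 lower, 265 higher) and the same 5 members, but not Ddx4, Rad21, Sycp2l, Mei1, Mlh3 or the surface epithelium markers Upk3b and Krt19. The same-numbered libraries did not deviate together (correlations of -0.12, 0.09 and -0.09). With 3 libraries per group this cannot decide whether the numbers pair them, and the labels do not say.

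Leaving out 1 library gave 249 to 853 called genes (104 to 321 lower, 145 to 532 higher), 2 to 5 members lower, 6 to 10 partners lower and 0 to 1 higher, and 7 to 9 germ cell markers lower. Some uncalled genes changed sign. Not all were near 0 in the fit reported above, where the log2 fold change was -0.82 for Syce3, -0.28 for Mad2l1 and -0.20 for Cyp17a1. Smc3 went to -0.00050 with the CPM filter, -0.0087 with DESeq2, -0.0098 with halved counts, -0.0090 with limma-voom, -0.0038 with median-of-ratios factors, -0.056 with total counts and -0.062 without both libraries richest in Rn45s. Cyp17a1, a testis marker, went to 0.13 with limma-voom, 0.13 with total counts and 0.36 without those libraries, and Mad2l1 to 0.0038 and 0.14 with the last 2 settings. With 1 library left out the log2 fold change ran from -2.73 to 0.055 in Syce3, -0.25 to 0.011 in Sun1, -0.075 to 0.12 in Smc3, -0.58 to 0.19 in Cyp17a1 and -0.16 to 0.078 in Atg101.

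Relative to Ddx4 alone the Sycp1 and Sycp2 log2 differences were 0.083 and 0.055. Relative to the 4 germ cell markers Ddx4, Dazl, Mael and Mov10l1 they were 0.062 and 0.034. Of the called markers not used here, Tdrd1, Piwil2, Ybx2 and Dppa3 fell further than each of these 4. Tdrd9 fell further than all of them but Mov10l1. Without both libraries richest in Rn45s the log2 difference of Sycp1 from Ddx4 and Dazl was 0.082. With a prior count of 2 that of Syce3 was 0.21, and the ratios of Syce2 to Tex12 and Syce1 to Syce3 went to -0.22 and -0.54, and to -0.38 and -0.37 without those libraries. With 1 library left out the difference from the markers ran from -0.16 to 0.065 in Sycp1, -0.15 to 0.0042 in Sycp2, -1.21 to -0.60 in Sycp3, -0.62 to -0.15 in Syce1, -0.054 to 0.80 in Syce2, -1.18 to 0.11 in Syce3, 0.38 to 0.78 in 4930447C04Rik, -0.40 to -0.09 in Hormad1 and -0.13 to 1.02 in Hormad2. The 4 ratios ran from -1.06 to -0.60 (Sycp3 to Sycp2), 0.25 to 1.29 (Hormad2 to Hormad1), -0.17 to 0.64 (Syce2 to Tex12) and -0.73 to 1.02 (Syce1 to Syce3). The cause of these changes was not tested. Syce3 and Tex12 had at most 24 and 6 counts in any library.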
